A study of Mus musculus with 4 samples.

Results

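7SK RNA (gene symbol Rn7sk) and the mRNAs of its 7 protein partners were followed in RNA of mouse migrasomes (2 libraries) and of cytosol (2 libraries). Migrasomes are large vesicles that grow on the retraction fibres behind a migrating cell. The 8 members were taken by gene symbol from the 49568 symbols of the deposited table, and all 8 were found and passed the filter on low values. The labels name only the fraction and a replicate number, and the cell of origin, any treatment and the way of purification are not stated there. Nor do the labels name separate cultures for the 2 libraries of a fraction, so the spread behind each p-value may be technical.

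7SK is an abundant nuclear non-coding RNA made by RNA polymerase III. Together with HEXIM proteins it binds P-TEFb, the complex of the kinase CDK9 and cyclin T1 or T2, and keeps the kinase inactive. Released P-TEFb phosphorylates RNA polymerase II and its pausing factors, which lets paused polymerase go on into the gene. LARP7 binds the 3′ end of 7SK and MEPCE caps its 5′ end, and both stabilise the RNA. The libraries measured 7SK itself, but for the partners they measured the mRNAs, which are polymerase II transcripts, and not the proteins.

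Mouse Rn7sk (ENSMUSG00000065037.1) is a single-exon gene on chromosome 9, from 78175303 to 78175633 on the minus strand (GRCm38, GENCODE M21, as for all positions here). Its transcript has 331 bases. The first 100 and the last 60 are printed, with T in place of U, because HEXIM1 and LARP7, whose mRNAs are described further on, are known to bind these ends. Capitals mark every GATC in the 5′ end and the closing run of T in the 3′ end. The hairpin that HEXIM1 binds is known to hold a GAUC repeat, but not every marked GATC need belong to it.
Rn7sk bases 1 to 100: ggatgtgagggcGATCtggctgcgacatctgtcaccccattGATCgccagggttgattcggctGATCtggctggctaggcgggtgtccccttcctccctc
Rn7sk bases 272 to 331: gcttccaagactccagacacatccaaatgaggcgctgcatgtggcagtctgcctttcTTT

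The letters GATC, which read the same on both strands, occur 3 times, at bases 13 to 16, 42 to 45 and 64 to 67. Among 129282 annotated transcripts of at least 331 bases, 8.0% hold 3 or more in their first 331 bases and 61.9% hold at least 1. The transcript closes with a run of 3 T, part of the U-rich end that LARP7 is known to bind.

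Read totals over genes were 5228713 and 5171092 for migrasome replicates 1 and 2, and 7529136 and 8608369 for cytosol replicates 1 and 2. Levels are given as the authors' normalised read counts, and differences are migrasome minus cytosol, taken on log2(value + 1), and carry their standard error (SE). limma tested 10860 genes. Of these 26.4% passed at an adjusted p of 0.05, 8.68% as higher (943) and 17.7% as lower (1919) in migrasome. The split was 322 higher and 2522 lower with every library scaled to the same total, and 1194 higher and 1403 lower with quantile normalization. The median difference over all tested genes was -0.0043. Normalised counts give each RNA relative to the rest of its library, and in these bulk preparations fewer vesicles holding an RNA and less RNA per vesicle cannot be told apart.

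Rn7sk was far lower in migrasome RNA. It stood at 6647 and 12733 in migrasome replicates 1 and 2, against 69225 and 71563 in cytosol replicates 1 and 2. The groups did not overlap, and the migrasome libraries differed from each other far more than the cytosol libraries did. The mean was 9690 ± 4304 in migrasome and 70394 ± 1653 in cytosol (SD, n = 2 each), 7.26-fold lower in migrasome. The log2 difference was -2.94 ± 0.34 (SE, limma adjusted p = 0.00055), with a 95% confidence interval of -3.69 to -2.18. Of the 10860 tested genes, 22 had a difference at or below that of Rn7sk, itself included.

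Rn7sk was among the most abundant RNAs of the cytosol libraries. It ranked 171 and 56 by value in migrasome replicates 1 and 2, and 3 and 2 in cytosol replicates 1 and 2. Its 4700 reads were 0.0899% of migrasome replicate 1 (95% Wilson interval 0.0874% to 0.0925%), and its 9675 reads were 0.187% of migrasome replicate 2 (0.183% to 0.191%). In cytosol replicate 1 its 89236 reads were 1.185% of the library (1.178% to 1.193%), and in replicate 2 its 104340 reads were 1.212% (1.205% to 1.219%). The intervals of the 2 migrasome libraries lie apart from each other and far below those of cytosol, and they hold for counting error alone, because PCR copies were not told apart by molecular identifiers.

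Mammalian genomes hold many partial copies of the 7SK gene. In the annotation 11 other genes, all unnamed models, carry a transcript that matches Rn7sk at 90% identity or more over at least 100 bases, the matches running from 229 to 246 bases. Their values summed to 36.8 and 59.2 in migrasome replicates 1 and 2 and to 256 and 289 in cytosol replicates 1 and 2. That sum is small beside the values of Rn7sk, and it was lower in migrasome as well. The highest was Gm24447, whose match is 100% over 241 bases, at 26.9 and 43.4 in migrasome and 180 and 209 in cytosol. Whether reads of Rn7sk were counted for such copies, or left out because they map to several places, is not stated in the labels or processing notes.

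**Figure D1:**
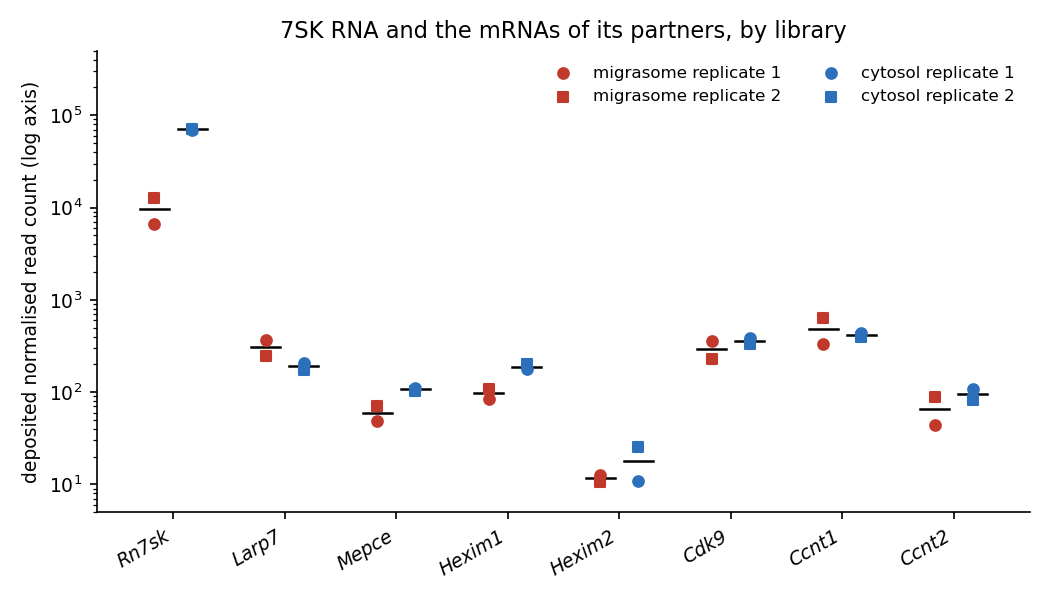
Deposited normalised read count of each member on a log axis, in migrasome (red, left) and cytosol (blue, right); circles are replicate 1, squares are replicate 2 and the line is the mean of 2 libraries. Rn7sk stands at 6647 and 12733 in migrasome against 69225 and 71563 in cytosol, whereas the partner mRNAs all lie below 640.

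Of the 7 partner mRNAs, Hexim1 fell, none rose and 6 did not pass, a share near the background of 17.7% lower calls. At an unadjusted p under 0.05, 1 of the 8 members was higher (Larp7) and 3 were lower (Rn7sk, Hexim1 and Mepce). The share of all tested genes under that unadjusted threshold was not counted, here or for the lists further on. Such counts therefore say nothing particular of a set. edgeR on recovered reads called 0 higher and 3 lower of the members, and DESeq2 0 higher and 2 lower. Over all 10860 tested genes edgeR called 1071 higher and 2064 lower, and DESeq2 1140 higher and 1599 lower. The partners' differences ranged from -0.97 to 0.66 with a median of -0.49. The groups did not overlap for 4 of the 8 members, nor for 69.5% of all tested genes. Both migrasome libraries lay below both cytosol libraries for 3 of them, as for 36.3% of all tested genes, and above for 1, as for 33.3%. Summed over the 7 partners, the value was 1253 and 1391 in migrasome replicates 1 and 2 and 1442 and 1319 in cytosol replicates 1 and 2, so the summed ranges overlapped.

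Hexim1 encodes the main HEXIM protein, which needs 7SK RNA to inhibit CDK9. It is a single-exon gene on chromosome 11 from 103116231 to 103119725 (plus strand). Its value was 84.9 and 109 in migrasome replicates 1 and 2, against 178 and 200 in cytosol replicates 1 and 2. Both migrasome libraries lay below both cytosol libraries. The mean was 97.0 ± 17.2 in migrasome and 189 ± 15.5 in cytosol (SD, n = 2 each), and the log2 difference was -0.97 ± 0.25 (SE, limma adjusted p = 0.020). The call was lost with quantile normalization (adjusted p = 0.073), without cytosol replicate 1 (0.079) and without cytosol replicate 2 (0.16).

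Hexim2, its paralog on the same chromosome from 103132429 to 103139876 (plus strand), can take the place of HEXIM1 in the particle. It was the least abundant member, with 9 and 8 reads in migrasome replicates 1 and 2 and 14 and 37 in cytosol replicates 1 and 2. Its value was 12.7 and 10.5 in migrasome and 10.9 and 25.4 in cytosol, and the groups overlapped. The log2 difference of -0.49 ± 0.50 (limma adjusted p = 0.48) turned to 0.085 without cytosol replicate 2. At this depth a change of Hexim2 as large as that of Hexim1 was not detectable, since the interval of its difference runs from -1.61 to 0.63.

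Larp7 encodes the La-related protein on the 3′ end of 7SK, and its gene spans 127536714 to 127553349 on chromosome 3 (minus strand). Its value was 368 and 243 in migrasome replicates 1 and 2, against 207 and 174 in cytosol replicates 1 and 2. It was the one partner that was higher in each migrasome library than in either cytosol library. The mean was 306 ± 87.8 in migrasome and 190 ± 23.8 in cytosol (SD, n = 2 each), and the log2 difference of 0.66 ± 0.26 did not pass (limma adjusted p = 0.083). It passed in 3 of 14 alternatives, among them quantile normalization (0.84, limma adjusted p = 0.041). It did not pass with every library scaled to the same total (0.38, limma adjusted p = 0.28), with edgeR (0.065) or with DESeq2 (0.074). The difference was 0.95 without migrasome replicate 2 and 0.36 without migrasome replicate 1. The Mir302 and Mir367 genes that lie inside Larp7 on the opposite strand are listed at 0 in all 4 libraries.

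Mepce, the 7SK capping methyltransferase gene on chromosome 5 from 137781906 to 137787655 (minus strand), went the other way. Its value was 48.1 and 71.1 in migrasome replicates 1 and 2, against 111 and 104 in cytosol replicates 1 and 2. The groups did not overlap. Its log2 difference of -0.86 ± 0.29 missed the threshold narrowly (limma adjusted p = 0.052). It passed in 5 of 14 alternatives. Passes came with a pseudocount of 10 (limma adjusted p = 0.049), with every library scaled to the same total (limma, 0.031) and with edgeR (0.045). It did not pass with quantile normalization (-0.47, limma adjusted p = 0.22), with no filter (limma, 0.11) or with DESeq2 (0.11). The difference was -1.14 without migrasome replicate 2 and -0.59 without migrasome replicate 1.

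The value of Larp7 over that of Mepce was 7.65 and 3.43 in migrasome and 1.87 and 1.68 in cytosol, a pair set side by side after their values were seen. The exact two-sided permutation test of 2 libraries against 2 gave p = 0.33 for this ratio, the smallest p that such a test can give.

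**Figure D2:**
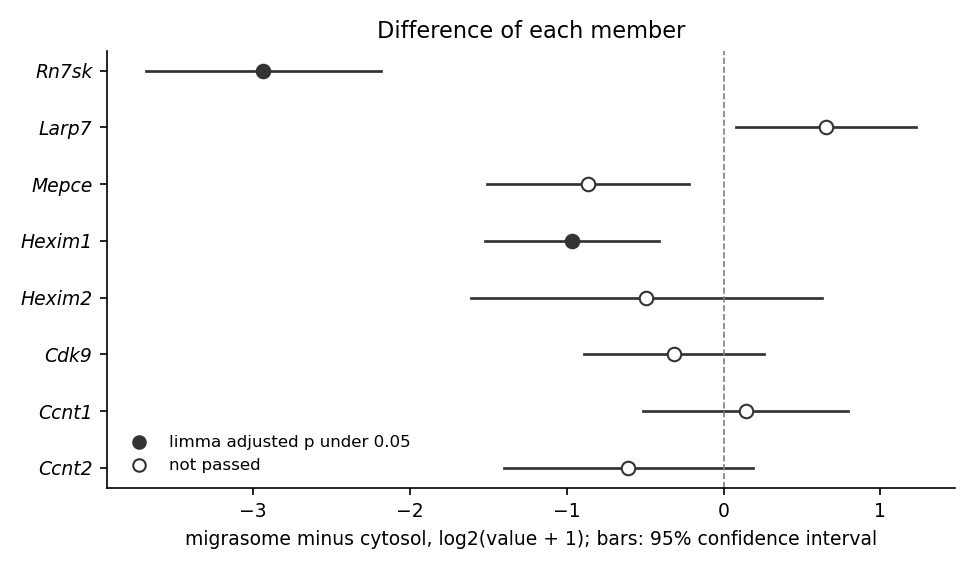
Difference in log2(value + 1) of each member, migrasome minus cytosol, with its 95% confidence interval from limma; filled points passed an adjusted p of 0.05. Rn7sk (-2.94) and Hexim1 (-0.97) are filled, and the interval of Rn7sk lies wholly below the intervals of the 7 partners.

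The mRNAs of P-TEFb itself did not pass. Cdk9, which encodes the kinase, lies on chromosome 2 from 32705784 to 32713076 (minus strand). Its value was 362 and 229 in migrasome replicates 1 and 2, against 383 and 336 in cytosol replicates 1 and 2. The groups overlapped (log2 difference -0.32 ± 0.26, limma adjusted p = 0.37). The difference was 0.013 without migrasome replicate 2. Leaving out migrasome replicate 1 gave -0.65 (adjusted p = 0.048).

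Ccnt1 encodes cyclin T1, the cyclin of most P-TEFb, on chromosome 15 from 98538689 to 98570923 (minus strand). Its value was 334 and 640 in migrasome replicates 1 and 2, against 442 and 397 in cytosol replicates 1 and 2. One migrasome library lay below both cytosol libraries and the other above them. The log2 difference was 0.14 ± 0.29 (limma adjusted p = 0.74), with a 95% confidence interval of -0.51 to 0.79. It was -0.33 without migrasome replicate 2 and 0.61 without migrasome replicate 1 (adjusted p = 0.048), and it was -0.13 with every library scaled to the same total.

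Ccnt2, which encodes the alternative cyclin T2 on chromosome 1 from 127774164 to 127808061 (plus strand), was less abundant. Its value was 43.8 and 88.2 in migrasome replicates 1 and 2, against 109 and 83.0 in cytosol replicates 1 and 2. The groups overlapped (log2 difference -0.61 ± 0.36, limma adjusted p = 0.22), and the difference was -1.10 without migrasome replicate 2 (adjusted p = 0.010). The value of Ccnt1 over that of Ccnt2 was 7.61 and 7.25 in migrasome and 4.04 and 4.79 in cytosol. The exact permutation test gave p = 0.33, the smallest possible with 2 libraries against 2. Larp7 over Hexim1 also separated, at 4.33 and 2.23 in migrasome and 1.16 and 0.87 in cytosol. Hexim1 over Hexim2 overlapped, at 6.67 and 10.4 in migrasome and 16.4 and 7.89 in cytosol. So did Cdk9 over Hexim1, at 4.27 and 2.10 in migrasome and 2.15 and 1.68 in cytosol (exact permutation p = 0.67 for each). Between the migrasome libraries, Rn7sk, Mepce, Hexim1, Ccnt1 and Ccnt2 were higher in replicate 2, and Larp7, Hexim2 and Cdk9 were higher in replicate 1.

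Rn7sk was lower relative to each partner mRNA. Per library, the log2 value of Rn7sk minus that of Larp7 was 4.17 and 5.70 in migrasome and 8.38 and 8.68 in cytosol, the largest shift of the 7 (-3.59). Set against Ccnt1, Rn7sk stood 19.9 times as high in both migrasome libraries, and 157 and 180 times as high in cytosol replicates 1 and 2. Against Hexim1, the partner with the smallest shift (-1.97), it stood 78.3 and 117 times as high in migrasome and 388 and 357 times as high in cytosol. Between these extremes the shift was -2.07 against Mepce, -2.33 against Ccnt2, -2.44 against Hexim2 and -2.62 against Cdk9, and -3.08 against Ccnt1. For all 7 partners the migrasome values of this ratio lay below the cytosol values, and each exact permutation test gave p = 0.33, the smallest that 2 libraries against 2 allow. All 7 ratios share the Rn7sk values, so they are not 7 separate observations.

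**Figure D3:**
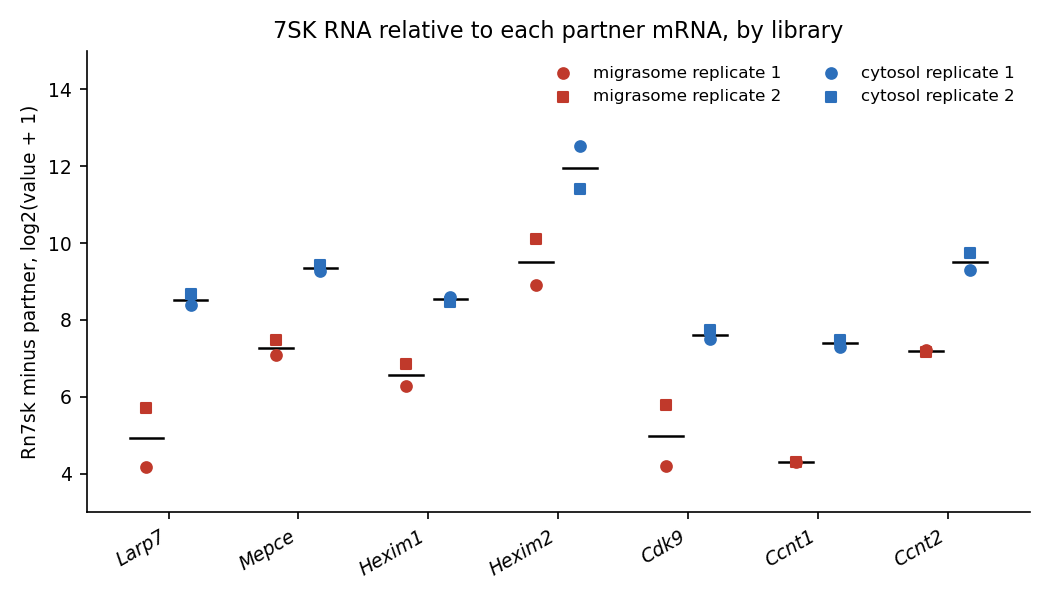
Log2(value + 1) of Rn7sk minus that of each partner mRNA in each library, migrasome in red on the left and cytosol in blue on the right; circles are replicate 1, squares are replicate 2 and the line is the mean. For each of the 7 partners both migrasome points lie below both cytosol points, from 4.17 and 5.70 against 8.38 and 8.68 for Larp7 to 6.27 and 6.85 against 8.59 and 8.47 for Hexim1.

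Per kilobase of annotated exon, Rn7sk was the highest member in both fractions, at 29275 ± 13002 in migrasome and 212671 ± 4995 in cytosol (SD, n = 2 each, as for the other values per kilobase). Larp7 came next, at 129 ± 37.1 in migrasome and 80.4 ± 10.04 in cytosol. In migrasome the order went on with Cdk9 (64.1 ± 20.4), Ccnt1 (53.1 ± 23.6), Hexim1 (27.8 ± 4.93) and Mepce (16.8 ± 4.57). Ccnt2 (5.35 ± 2.54) and Hexim2 (4.90 ± 0.66) were lowest. The neighbours Cdk9 and Ccnt1, and Ccnt2 and Hexim2, overlapped between libraries, and the other neighbours in migrasome did not. In cytosol Larp7 and Cdk9 (78.0 ± 7.23) overlapped, and so did Ccnt2 (7.79 ± 1.51) and Hexim2 (7.64 ± 4.33). Hexim1 (54.2 ± 4.42) stood above Ccnt1 (45.8 ± 3.48) in cytosol, the reverse of their order in migrasome, and both cytosol libraries showed it. These levels use the length of all annotated exons joined, which overstates the length of genes with many isoforms, such as Ccnt1 and Ccnt2. Selection of RNA in library preparation was not taken into account. The standing of Rn7sk against the mRNAs is thus one of reads, not of molecules.

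Other transcripts of RNA polymerase III went both ways, and all 8 of the tested RNAs of that list passed, 6 as higher and 2 as lower. Among all tested genes 26.4% passed, 8.68% as higher and 17.7% as lower. With Rn7sk, Rpph1 and Rmrp were lower in migrasome, the RNA subunits of RNase P and of RNase MRP, enzymes that work in the nucleus and nucleolus. Rpph1 stood at 48305 and 82103 in migrasome and 227079 and 204102 in cytosol (-1.77 ± 0.39, limma adjusted p = 0.0096). Rmrp stood at 21971 and 24958 in migrasome and 76484 and 60181 in cytosol (-1.53 ± 0.30, adjusted p = 0.0053). Both calls were lost without cytosol replicate 1, and that of Rpph1 also without cytosol replicate 2 and with no filter (adjusted p from 0.068 to 0.11).

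The value of Rn7sk over that of Rpph1 was 0.138 and 0.155 in migrasome and 0.305 and 0.351 in cytosol. Over Rmrp it was 0.303 and 0.510 in migrasome and 0.905 and 1.19 in cytosol. Each ratio, chosen after the values were seen, was lower in both migrasome libraries than in both cytosol libraries (exact permutation p = 0.33 for each, the smallest possible).

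The other 6 RNAs of the list were higher in migrasome. They were the Y RNAs Rny1 and Rny3, which bind the Ro protein, the 7SL RNA genes Rn7s1, Rn7s2 and Rn7s6 of the signal recognition particle, and the vault RNA Vaultrc5. Rny1 stood at 54044 and 41659 in migrasome and 11314 and 10352 in cytosol (2.13 ± 0.27, limma adjusted p = 0.00071), and Rny3 rose by 2.61 ± 0.30. The 6 calls held under all 14 alternatives. The 7SL genes are near-identical copies, so their single values are uncertain.

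**Figure D4:**
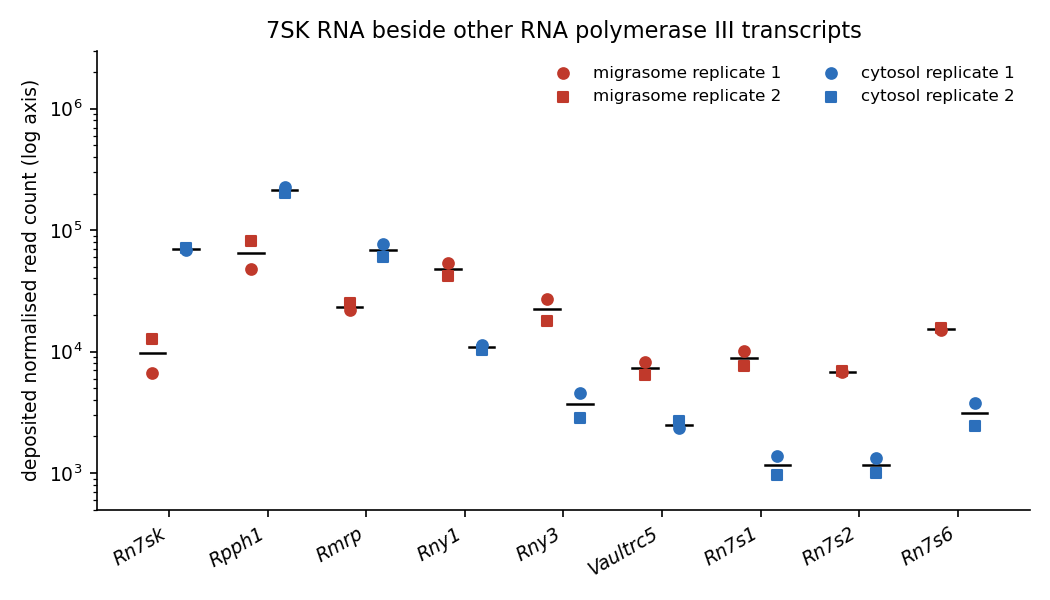
Deposited normalised read count on a log axis of Rn7sk and 8 other RNA polymerase III transcripts, in migrasome (red, left) and cytosol (blue, right); circles are replicate 1, squares are replicate 2 and the line is the mean. Rn7sk, Rpph1 and Rmrp are lower in both migrasome libraries, and the Y, vault and 7SL RNAs are higher in both.

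Other RNAs known to work in the nucleus were lower in migrasome or did not pass. In the list of U-class small RNAs, 3 were tested and all 3 fell, against 17.7% lower among all tested genes. These were Rnu12 of the minor spliceosome (-1.45 ± 0.23), Rnu11 of the same spliceosome (-1.06 ± 0.32) and Rnu3a, the U3 RNA of ribosome assembly (-2.12 ± 0.22). The limma adjusted p of Rnu3a was 0.00051 and that of Rnu12 0.0017. The call of Rnu11 (adjusted p = 0.037) was lost in 5 of 14 alternatives, among them leaving out migrasome replicate 2 or cytosol replicate 1. Of the 15 RNAs of that list found in the table, 9 were at 0 in all libraries, among them the U1, U2 and U7 genes listed. The handling of reads that map to several places is unknown, so a 0 need not mean that the RNA was absent.

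Of 10 nuclear-retained long non-coding RNAs, 5 were tested, and limma called 0 of them, with 3 lower at an unadjusted p under 0.05. edgeR called 1 lower and DESeq2 2, and limma 2 with equal totals or without cytosol replicate 2, and 1 when migrasome replicate 1 or migrasome replicate 2 was left out. All 5 differences were negative, with a median of -0.59. Malat1, an abundant RNA of nuclear speckles, stood at 5102 and 3882 in migrasome and 10534 and 5593 in cytosol (-0.79 ± 0.31, limma adjusted p = 0.084). Neat1, the core of paraspeckles, stood at 260 and 237 in migrasome and 728 and 278 in cytosol. The 10 RNAs summed to 5545 and 4315 in migrasome and 11552 and 6140 in cytosol, and Xist and Tsix were at 0 in all libraries. The migrasome and the cytosol libraries thus both held RNAs known to be nuclear. How far nuclear RNA in the preparations takes part in the difference of Rn7sk was not tested.

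In the list of factors that release or use P-TEFb, such as the super elongation complex, limma called 0 of 16 tested, with 5 higher and 0 lower at an unadjusted p under 0.05 (median difference 0.19). edgeR called 1 of them higher and DESeq2 3. Ddx21, a helicase that releases P-TEFb from 7SK, stood at 3267 and 2194 in migrasome and 1735 and 1726 in cytosol (0.63 ± 0.24, limma adjusted p = 0.072). The differences of the other abundant members were 0.39 for the splicing factor gene Srsf1, 0.54 for the phosphatase gene Ppp1ca and 0.025 for Srsf2. None of these 3 passed. A few calls appeared in this list when either migrasome library was left out. Without migrasome replicate 2 the calls among all tested genes rose as well.

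Among the pausing and elongation factors, which are DSIF, NELF, PAF subunits and Supt6, limma called 0 of 12 (2 higher at an unadjusted p under 0.05, median 0.20), and edgeR and DESeq2 called 0 as well. Supt5 of DSIF, a substrate of P-TEFb, had a difference of 0.49 ± 0.21 (limma adjusted p = 0.11), and Supt6 (0.18), Nelfe (0.33) and Ctr9 (0.12) were nearer 0. Among 13 RNA polymerase II subunit genes limma called 0 (4 higher at an unadjusted p under 0.05, median 0.24), edgeR 1 and DESeq2 2. Polr2e, a subunit shared by all 3 nuclear polymerases, had a difference of 0.63 ± 0.23 (limma adjusted p = 0.063). Polr2c (0.51), Polr2b (0.21) and Polr2m (-0.047) did not pass. Both lists gained calls in some fits without 1 library, most of them without migrasome replicate 2. Calls among all tested genes rose without that library as well.

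Of 12 other kinases and cyclins of the transcription cycle, 1 rose and 3 fell, and 8 did not pass (median -0.086). Among all tested genes 8.68% were higher and 17.7% lower, so these counts are near the background and say nothing particular of the list. Mnat1, the assembly factor of the CDK7 kinase, was the one that rose, at 513 and 405 in migrasome and 240 and 261 in cytosol (0.87 ± 0.22, limma adjusted p = 0.018). Those that fell were Cdk12, a polymerase II kinase related to Cdk9 (-0.71 ± 0.22), and the cyclin L genes Ccnl1 (-1.31 ± 0.34) and Ccnl2 (-0.74 ± 0.22). The 4 most abundant of the list, Cdk8 (-0.18), Ccnc (0.14), Ccnh (0.35) and Cdk7 (-0.15), did not pass. Without cytosol replicate 1 the calls of Mnat1, Cdk12, Ccnl1 and Ccnl2 were each lost, and those of Mnat1, Cdk12 and Ccnl2 also without cytosol replicate 2. Over the settings that ended a call, the limma or DESeq2 adjusted p ran from 0.053 to 0.27. Without migrasome replicate 2 the list had more calls in both directions, as did all tested genes.

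RNA-binding proteins reported on 7SK outside the core particle had a median difference of 0.65, and 3 of 11 rose and none fell, against 8.68% higher and 17.7% lower among all tested genes. They were Ncl, the gene of nucleolin (1.496 ± 0.43), Hnrnpk (0.88 ± 0.23) and Ssb, the gene of the La protein that first binds new polymerase III transcripts (0.74 ± 0.22). Hnrnpu (0.94 ± 0.35) and Hnrnpa2b1 (0.73 ± 0.47) did not pass. The calls of Ncl and Ssb were each lost in 7 of 14 alternatives and that of Hnrnpk in 4. The count was 0 with quantile normalization and with no filter, 1 with equal totals and 8 with a replicate block. Over all tested genes the block raised the higher calls from 943 to 1802. The count of the list fell when migrasome replicate 1 or either cytosol library was left out. It rose without migrasome replicate 2, as did the higher calls among all tested genes. Of the 6 tested La-related genes and Bcdin3d, a relative of Mepce, only Ssb rose, which stands in both lists, and its call was lost without migrasome replicate 1, without cytosol replicate 1 and without cytosol replicate 2 (adjusted p from 0.068 to 0.31 over the settings that ended it). Larp1 (0.16), Larp4 (-0.088) and Larp4b (0.57) did not pass.

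Of 12 immediate early and other short-lived mRNAs, whose synthesis is known to depend on P-TEFb, 7 fell and none rose, with a median of -0.89, against 17.7% lower and 8.68% higher among all tested genes. Without migrasome replicate 1, 1 of the 12 was called higher. Klf6 (-0.83 ± 0.21), Jun (-1.12 ± 0.24) and Klf10 (-0.86 ± 0.24) were among them. Mcl1, the most abundant, stood at 3715 and 6936 in migrasome and 4392 and 5255 in cytosol without passing. The count of 7 fell when migrasome replicate 1 or either cytosol library was left out. It rose without migrasome replicate 2, as did the lower calls among all tested genes.

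**Figure D5:**
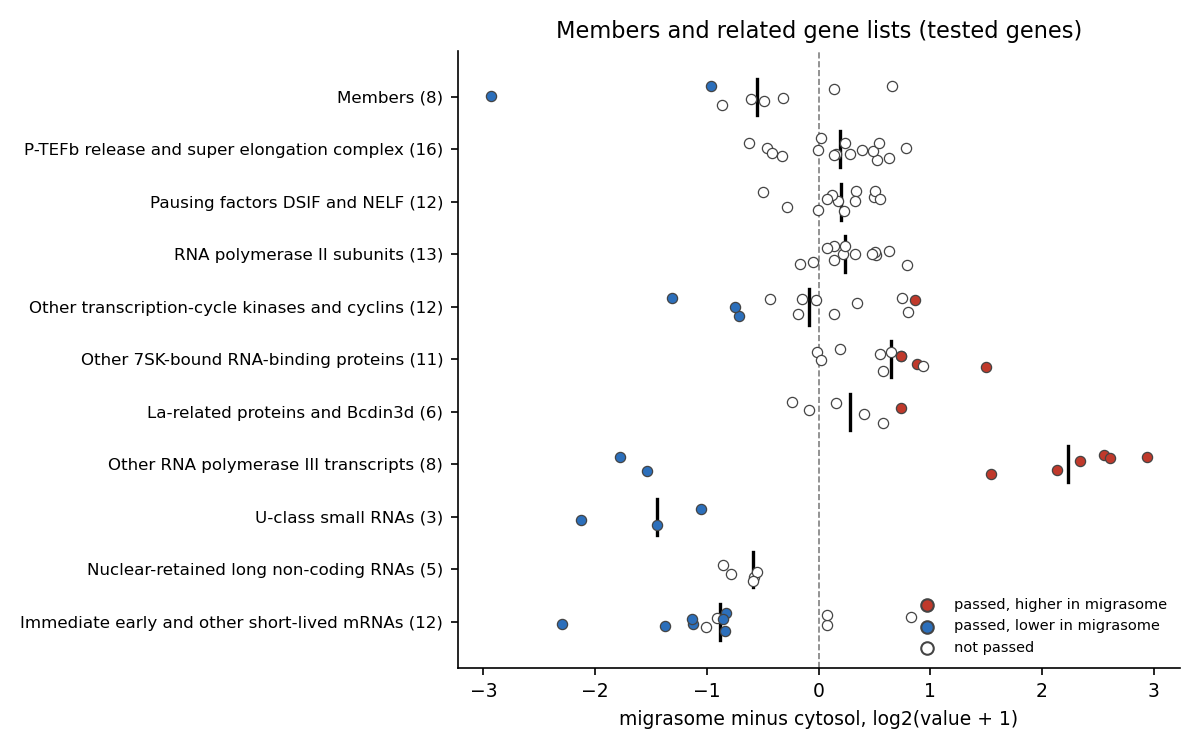
Differences in log2(value + 1) of all tested genes of each list, migrasome minus cytosol, with the members at the top; red points passed as higher, blue as lower, open points did not pass, black lines are list medians and the number tested stands in brackets. Rn7sk is the point at -2.94. The Pol II, pausing (which also holds PAF subunits and Supt6), P-TEFb release and nuclear-retained long non-coding RNA lists have no passed gene.

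Among the genes whose pattern over the 4 libraries was most like that of Rn7sk were Pcyox1l, Slc2a1, Reep4 and Il1rap. Likeness is the Euclidean distance between log2(value + 1) profiles, each centred on its own mean, and it was 0.20 to 0.40 for these 4. Pcyox1l, the nearest, stood at 22.6 and 40.8 in migrasome and 220 and 209 in cytosol. Slc2a1 encodes a glucose transporter and Il1rap an accessory chain of an interleukin receptor. In this order of 8256 genes, Rpph1 stood at place 335 and Rmrp at place 680. The telomerase RNA Terc stood at place 30, Rnu3a at 286, Rnu12 at 800 and Rn7s1 at 8249.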

How the data were processed

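RNA of migrasomes and of cytosol was sequenced in 2 libraries each, grouped by title. The submitters' processing notes list STAR and HTSeq among the tools, with DESeq, cutadapt, Trimmomatic and FastQC, give no version, and name the build GRCm38. Per the labels, the authors deposited 1 normalised signal per gene and library, named after DESeq. Every value was a whole multiple of its library's smallest value above 0 (100%, tolerance 0.001), as gene counts divided by a size factor would be, and reads were recovered in this way. Annotation, strand setting and handling of multi-mapping reads are unknown. With 3 reads as the floor, a gene with no read is below 4.24 and 3.95 in migrasome and 2.33 and 2.06 in cytosol replicates 1 and 2. The 2 migrasome libraries differed far beyond sampling noise (chi-square per degree of freedom 27.9), and so did the 2 cytosol libraries (17.6).

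Genes that reached a value of 10 in 2 or more of the 4 libraries entered a limma 3.58.1 fit in R 4.3.3 on log2(value + 1), with eBayes trended on the mean and no replicate block. The added 1 makes differences of low genes too small. P-values were adjusted by Benjamini-Hochberg over 10860 genes, with a threshold of 0.05. The scripts were run on simulated counts with the same dispersion for all genes. That run does not measure the error rates in these libraries. Alternatives changed the pseudocount, filter, scaling, trend, replicate block and libraries, and the recovered reads were also tested with edgeR 4.0.16 by quasi-likelihood and with DESeq2 1.42.0, which called 3135 and 2739 genes. Sequences came from the GENCODE M21 transcripts, and similar transcripts were sought with blastn 2.17.0. The members and the 10 related lists were chosen with earlier results of these data known. Named genes are the 8 members, the 4 most abundant tested genes of each list, every gene of a list with 4 or fewer calls, and 5 genes by likeness among those with a mean of at least 50, of which 1 is not reported here. Ratios of other gene pairs, Gm24447, Terc, Rn7s1, Rn7s2, Rn7s6, Vaultrc5 and the other genes at 0 were named after their values were seen.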

Additional observations from a re-analysis of the deposited data

How the results depend on the processing

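The difference of Rn7sk passed under all 14 alternatives, from -3.55 to -2.47, and Rn7sk stayed lower relative to each partner under each pseudocount and each left-out library. Every library scaled to the same total moved the median of all tested genes to -0.27 and quantile normalization to 0.11; relative to these medians Rn7sk stood at -2.93 and -3.66.

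Hexim1 lost its call with quantile normalization (-0.64) and ranged from -1.15 to -0.79 when 1 library was left out. Larp7 passed with quantile normalization (0.84) and with the block (0.66), and ranged from 0.36 to 0.95 over left-out libraries. With equal totals (0.38), edgeR (0.67) and DESeq2 (0.71) it did not pass. Mepce passed with a pseudocount of 10 (-0.77), with equal totals (-1.13), with edgeR (-0.85) and with the block (-0.86). It did not pass with quantile normalization (-0.47), with no filter (-0.86) or with DESeq2 (-0.82), and it ranged from -1.14 to -0.59 over left-out libraries. Direction turned for Ccnt1 with equal totals (-0.13) and without migrasome replicate 2 (-0.33), for Cdk9 without migrasome replicate 2 (0.013) and for Hexim2 without cytosol replicate 2 (0.085). Over left-out libraries Ccnt1 ranged from -0.33 to 0.61, Cdk9 from -0.65 to 0.013, Ccnt2 from -1.10 to -0.11 and Hexim2 from -1.07 to 0.085. Hexim2 could not be tested with a minimum mean of 50. The cause was not tested.

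All calls numbered 2862, against 1741 with no filter and 1414 to 4885 over left-out libraries. Higher calls numbered 943, against 393 with no filter, 322 with equal totals, 483 without a trend and 231 to 2085 over left-out libraries. Lower calls numbered 1919, and 1147 to 2800 over left-out libraries. The lone library of a fraction is there assumed to vary like the others.

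With a replicate block 4423 genes passed, 1802 of them higher. No label ties libraries by number, and deviations of same-numbered libraries correlated at 0.23 across genes. Hexim2 had the fewest reads of the 8 members.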
